A study of Rattus norvegicus with 6 samples.

Results

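The genes of glycolysis and of the response to low oxygen were examined in rat tissue labelled as cerebellum after acute alcohol intoxication. They were chosen by name as 36 genes of the hypoxia pathway and of glucose breakdown, and for each gene the brightest matching sequence on the array was taken. All 36 were found among 26419 features, each measured by 5 probes. The series held 3 pools from rats given 40% alcohol and 3 control pools from rats given saline, both by gavage at 15 ml/kg. A pool was made from 3 animals, male Sprague-Dawley rats of 8 to 10 weeks and 240 to 260 g, and all rats, controls included, had fasted for 12 hours. Each pool was hybridised to 1 single-colour NimbleGen array with Cy3-labelled material. Levels are log2 values of the RMA intensity, a measure that corrects background and summarises the probes of a sequence. How long after gavage the tissue was taken is not stated in the labels. All p-values reflect variation among pools, not among single rats, and their precision is limited by the number of arrays.

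Glycolysis splits glucose into pyruvate and yields ATP without oxygen, and lactate dehydrogenase then turns pyruvate into lactate. Cells sense oxygen through prolyl hydroxylases, which mark the hypoxia-inducible factors (HIF) for destruction while oxygen is present. When oxygen falls, these factors persist and switch on genes for glucose uptake, glycolysis, vessel growth and mitochondrial turnover. In brain, astrocytes and neurons both use glucose, neurons carry their own enolase isoform, and aldolase C is known from astrocytes and from bands of Purkinje cells.

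The 6 pools did not all carry cerebellar markers at a like level. Alcohol pool 2 had a median level of 9.85 over 10 Purkinje cell markers and control pool 1 one of 9.84, whereas the other 4 pools ranged from 13.86 to 14.07. For 10 granule cell markers it was 8.27 and 8.66 against 12.92 to 13.06, with 3 of the 10 under an intensity of 50 in alcohol pool 2 and 1 in control pool 1. Oligodendrocyte markers (8 genes) stood at 14.34 and 14.37 in these pools against 12.40 to 12.92, and endothelial and pericyte markers (8 genes) at 10.76 and 10.63 against 9.76 to 9.87. The brainstem list (7 of 8 genes measured) was also higher there, with medians of 9.03 and 9.65 in these pools. Elsewhere its median was 4.41 to 5.08, under the floor, here an intensity of 50 or 5.64 on the log2 scale, below which a level is only called low. Hoxa2, a patterning gene of the hindbrain, was at 10.60 and 10.38 in these pools and at 4.56 or less elsewhere. Tph2, which makes serotonin in brain, was at 9.96 and 10.61 against 5.56 or less, and the serotonin transporter gene Slc6a4 at 9.03 and 9.65 against 5.07 or less. Hoxb2, of the same list, was under the floor in all 6 pools. Pcp2, a Purkinje cell gene, was at 5.27 and 5.65 in these pools and at 13.42 or more elsewhere. Calb1, of the same list, was lower there but still bright, at 11.18 and 11.40 against 14.19 to 14.32. Pcp4, also of that list, was at 14.50 and 14.47 against 14.50 to 14.93. Barhl1, of the granule cell list, was higher in these pools, at 8.60 and 8.48 against 7.41 to 8.31. Pools called without cerebellar markers below are those with the low list medians. The marker lists of alcohol pool 2 and control pool 1 thus go against the label of cerebellum, although not every listed gene does. Every difference over all 6 pools includes 1 such pool in each group. This split does not follow treatment, so results are also given for the other 4 arrays and with a model term for these pools, called the marker term.

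HIF binding sites share the core letters ACGTG or GCGTG, and these were searched on both strands of the 250 bases before the gene start, a sequence feature not used to choose the genes. RefSeq promoters of the rat assembly GRCr8 matched 32 of the 36 genes and gave 37 windows, since Vegfa, Hk1, Aldoa and Eno1 have more than 1. Of these windows 22 (59.5%) held a core on either strand, against 36.7% of all 33469 promoter windows in the table. For ACGTG alone the shares were 40.5% and 16.6%. The members' windows were richer in G and C, with a median of 63.6% against 51.2%. Within a G and C content of 58% to 68.4%, 63.2% of 19 member windows held either core, against 58.6% of 6743 windows of all genes. For ACGTG alone the shares within that range were 42.1% and 23.1%. A match describes letters only. The windows with 4 matches, the most among the members, are shown because they belong to genes of 4 separate steps: mitochondrial turnover, a HIF target of little-known function, glucose uptake and lactate formation. Bnip3 lies on the minus strand at chr1:203154963-203155212, Ankrd37 on the plus strand at chr16:53001257-53001506, Slc2a1 on the plus strand at chr5:138002272-138002521 and Ldha on the plus strand at chr1:106507842-106508091, all in GRCr8. Capitals mark the core on either strand. Where the letters read CACGTG, as in Bnip3, Ankrd37 and Ldha, the core was counted once on each strand. These 3 windows thus hold fewer than 4 separate sites. The letters CACGTG are also the E-box bound by other factors.
Bnip3: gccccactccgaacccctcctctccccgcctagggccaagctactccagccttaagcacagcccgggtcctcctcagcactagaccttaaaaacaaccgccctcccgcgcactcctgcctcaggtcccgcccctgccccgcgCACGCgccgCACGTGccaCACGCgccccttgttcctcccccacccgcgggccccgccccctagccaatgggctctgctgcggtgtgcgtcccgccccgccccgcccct
Ankrd37: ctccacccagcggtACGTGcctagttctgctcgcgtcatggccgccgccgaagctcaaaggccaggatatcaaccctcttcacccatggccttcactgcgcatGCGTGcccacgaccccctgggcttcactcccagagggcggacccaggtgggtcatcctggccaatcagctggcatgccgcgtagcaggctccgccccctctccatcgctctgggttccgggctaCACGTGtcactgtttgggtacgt
Slc2a1: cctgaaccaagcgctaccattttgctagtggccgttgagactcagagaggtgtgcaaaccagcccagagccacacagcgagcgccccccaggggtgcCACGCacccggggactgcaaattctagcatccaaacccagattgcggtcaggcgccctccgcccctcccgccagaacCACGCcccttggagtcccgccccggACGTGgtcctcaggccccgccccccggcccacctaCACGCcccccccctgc
Ldha: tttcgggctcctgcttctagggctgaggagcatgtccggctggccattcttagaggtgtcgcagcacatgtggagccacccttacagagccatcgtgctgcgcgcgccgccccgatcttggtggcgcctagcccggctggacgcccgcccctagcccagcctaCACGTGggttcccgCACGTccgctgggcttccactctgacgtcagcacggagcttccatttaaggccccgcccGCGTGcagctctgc

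No member passed the threshold in the comparison of alcohol with control, which asks whether acute intoxication changed these genes. With limma and Benjamini-Hochberg adjustment over all features, 0 of 36 members were called (0.00% of all features were called), and the adjusted p was 1.00 for every member. Without adjustment, 0 of 36 members had a limma p under 0.05, against 3.90% of all features. The lowest unadjusted p in limma was 0.14, for Hk2. Epo and Car9 lay under the floor on all 6 arrays and enter the counts over 36 genes only through their fitted values. Over the other 34 genes the median difference was -0.0066, against -0.03 over all features that reach the floor on at least 3 arrays. Of the 34, 17 were higher and 17 lower with alcohol, while 43.9% of those features were higher. Their differences ran from -0.36 (Ankrd37) to 0.30 (Adm). The 95% interval of the difference lay between -1 and 1, that is within a doubling or halving, for 30 of 36 members (59.9% of all features). The other 6 were Egln3, Adm, Ankrd37, Car12, Ndrg1 and Mxi1. In simulated data with the spread of these arrays, limma found 1% of the features given a change of 1 log2 unit and 55% of those given a change of 2. Those features were drawn at random from the brighter ones of the array, not from the members. For this fit the noise was drawn separately for each feature. A shift shared by many features in alcohol pool 2 and control pool 1 was not simulated, so the shares may differ from those of the real arrays. A change of 1 log2 unit could thus have gone uncalled, although it lies outside the 95% interval of 30 of the 36 members.

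**Figure D1:**
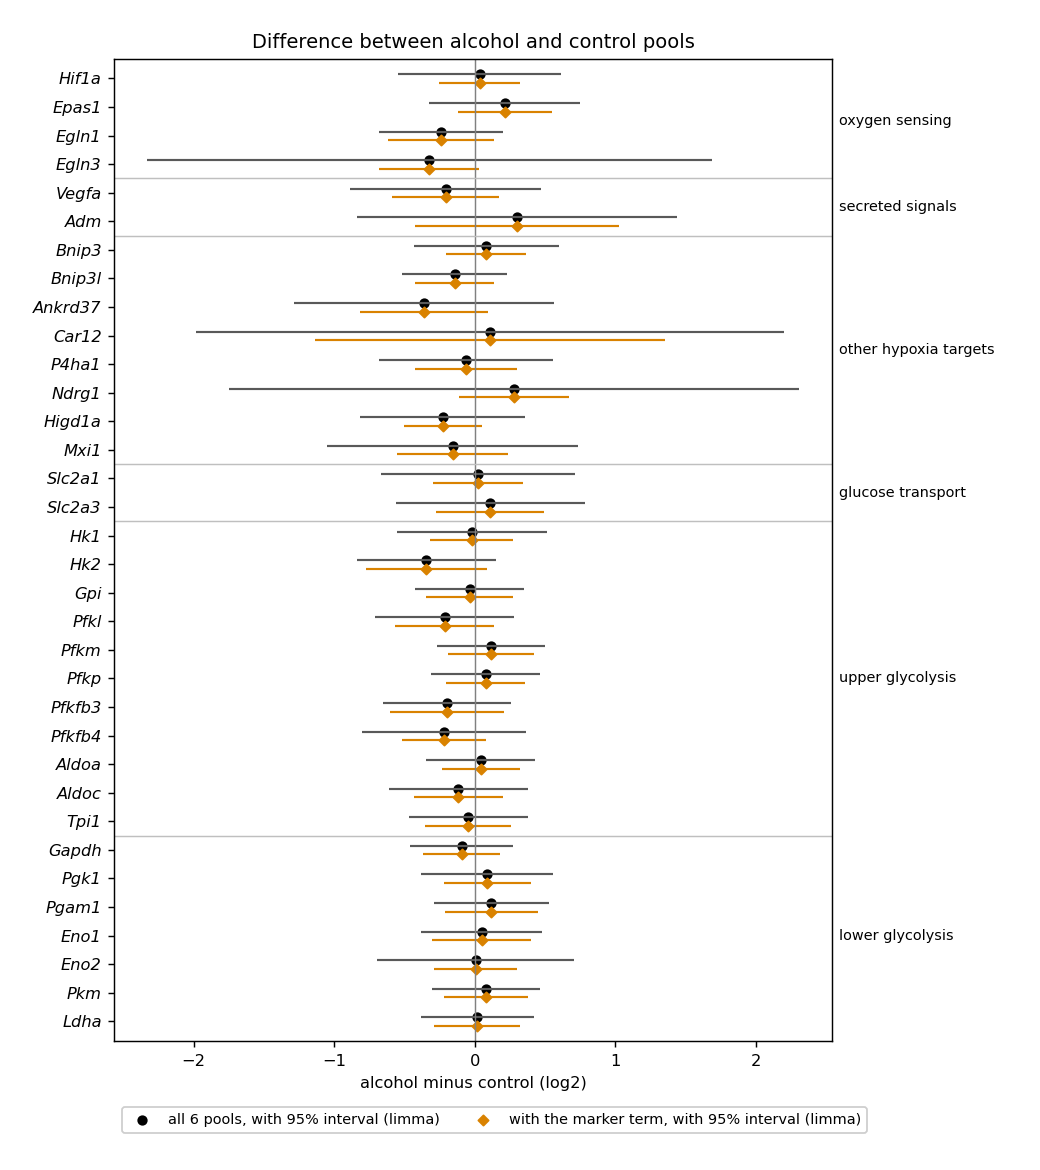
Difference between alcohol and control pools for the 34 genes that reach the floor on at least 3 arrays (horizontal axis, log2, alcohol minus control), grouped by role, without Epo and Car9. Points are limma estimates and lines their 95% intervals, in black from all 6 pools with group as the only term and in orange with the marker term. All 34 black intervals cross 0, and those of Egln3, Car12 and Ndrg1 are the longest.

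Accounting for the pools with low cerebellar markers narrowed the errors but gave no calls. The median standard error of a member was 0.21 with group as the only term and 0.13 with the marker term, which left the differences themselves as they were. With that term 34 of 36 members had a 95% interval within -1 and 1 (82.9% of all features), the exceptions being Adm and Car12. Adjusted p values in limma with the marker term ran from 0.549 for Egln3 to 0.989 for Eno2, and 0 of 36 members were called (0.00% of features). The unadjusted p was under 0.05 for 0 of 36 members with this term, against 9.47% of all features. In the other 4 arrays 1 of 36 members, Adm, had an unadjusted limma p under 0.05 (8.03% of features), with an adjusted p of 0.591, but 3 of its 4 values there lay under the floor. In the simulated data the fit with the marker term found 43% of the features given a change of 1 log2 unit.

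The genes that sense oxygen showed no common direction. Hif1a, the oxygen-regulated HIF subunit, was at 12.56, 12.10 and 12.70 in alcohol pools 1, 2 and 3 and at 12.12, 12.55 and 12.58 in control pools 1, 2 and 3. The groups overlapped, and the low values were those of the pools without cerebellar markers. For the level of a single gene in pooled tissue, fewer cells of a type and less RNA per cell cannot be told apart. Its difference was 0.04 (SE 0.24). Epas1, which encodes the HIF-2 subunit known from endothelial cells and astrocytes, differed by 0.21 (SE 0.22). Alcohol was higher among the 4 marker-bearing pools and between the remaining pair. Among the 4, however, alcohol pool 3 at 11.451 and control pool 3 at 11.447 were nearly equal. Egln1, the main prolyl hydroxylase, differed by -0.24 (SE 0.18).

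Egln3, a hydroxylase that is itself induced by HIF, was at 5.48, 7.71 and 5.80 in alcohol pools 1, 2 and 3. It was at 8.16, 5.95 and 5.85 in control pools 1, 2 and 3. It thus stood clearly above the floor only in alcohol pool 2 and control pool 1, and alcohol pool 1 was under it. The group difference of -0.32 (SE 0.83) rests on these pools: without control pool 1 it was 0.43, and without alcohol pool 2 it was -1.01. It was -0.26 among the other 4 arrays and -0.45 for alcohol pool 2 minus control pool 1.

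Secreted signals of the pathway were also spread by pool. Vegfa, the vessel growth factor, was at 12.24, 11.48 and 12.15 in alcohol pools 1, 2 and 3 and at 11.88, 12.49 and 12.13 in control pools 1, 2 and 3. Its difference was -0.21 (SE 0.28), and the groups overlapped. Adm, which encodes the vessel-widening peptide adrenomedullin, was at 5.92, 6.12 and 5.56 with alcohol and at 6.61, 4.83 and 5.27 in controls. Only 3 of these 6 values reached the floor, those of alcohol pools 1 and 2 and of control pool 1. The other 3 are only called low, and no direction is read for Adm. Epo, the red cell growth factor, was low in the same sense on all 6 arrays.

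Of the 9 other hypoxia targets, Car9 lay under the floor, 3 were higher and 5 lower with alcohol. Bnip3l, a receptor for the removal of mitochondria, was at 13.64, 13.64 and 13.63 in alcohol pools 1, 2 and 3. Bnip3l was at 13.86, 13.73 and 13.75 in control pools 1, 2 and 3, and the groups did not overlap. All alcohol values lay below all control values for 2 of 36 members, Bnip3l and Gapdh, against 4.36% of all features. The difference of Bnip3l was -0.14 (SE 0.15, 95% interval -0.51 to 0.23; limma adjusted p = 1.00). Its paralogue Bnip3, which has the same role, differed by 0.08 (SE 0.21).

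Ankrd37, the HIF target whose promoter is shown above, was at 9.55, 9.10 and 10.10 in alcohol pools 1, 2 and 3. It was at 9.29, 10.23 and 10.32 in control pools 1, 2 and 3. The pooled groups overlapped, yet within each kind of pool alcohol was lower, by -0.45 among the 4 and by -0.18 between the other pair. Its difference over all pools was -0.36 (SE 0.38), and in limma with the marker term the SE was 0.18 and the adjusted p 0.577. The same order within both kinds of pool, alcohol below control, was seen for 7 of 36 members (14.4% of all features): Egln3, Bnip3l, Ankrd37, Higd1a, Pfkl, Pfkfb4 and Gapdh. The opposite order was seen for 4 of 36 (10.8% of all features): Epas1, Car9, Pfkp and Aldoa. Car9, a carbonic anhydrase that sets pH in hypoxic tissue, was the 1 member of 36 with all alcohol values above all control values (4.39% of all features), but it lay under the floor on all 6 arrays.

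**Figure D2:**
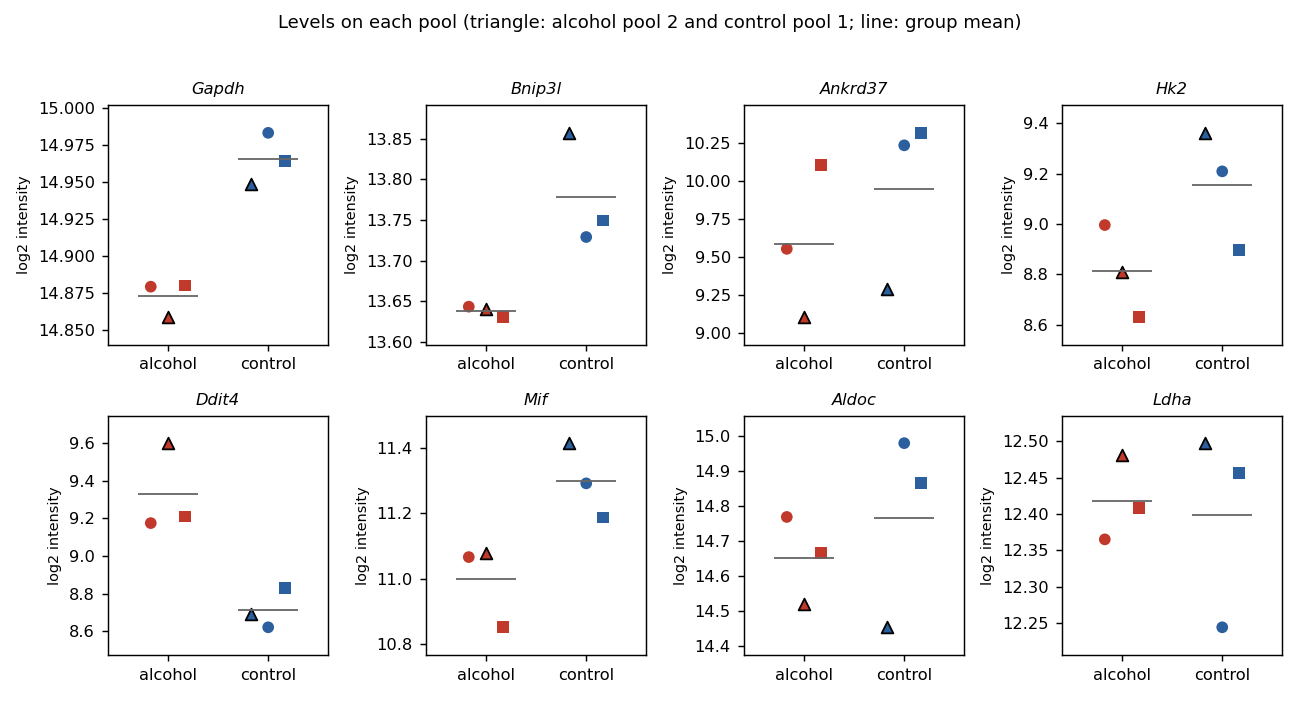
Levels (vertical axis, log2 RMA intensity, a separate scale in each panel that does not start at 0) in the 3 alcohol pools, red, and the 3 control pools, blue. Triangles are alcohol pool 2 and control pool 1, circles and squares the other pools, and lines group means. Gapdh, Bnip3l, Ddit4 and Mif show no overlap between groups, whereas Ankrd37, Hk2, Aldoc and Ldha overlap.

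Ndrg1, a HIF target that is also expressed in myelinating cells, was at 10.11, 12.08 and 9.67 in alcohol pools 1, 2 and 3. It was at 11.79, 9.67 and 9.56 in control pools 1, 2 and 3. The high values were those of the pools with high oligodendrocyte markers, at 14.34 and 14.37. Microglia markers were also highest in these pools, at 9.94 and 9.81 against 7.94 to 8.55. So were the endothelial and pericyte list and the brainstem list. The part of any of these cell types or of brainstem tissue in the level of Ndrg1 was not tested. The difference with alcohol was 0.28 (SE 0.84), and it was -0.45 without alcohol pool 2 and 1.01 without control pool 1.

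Car12, another carbonic anhydrase, was at 7.06, 7.95 and 5.14 in alcohol pools 1, 2 and 3 and at 7.91, 6.28 and 5.64 in control pools 1, 2 and 3. The values of alcohol pool 3 and control pool 3 lay under the floor. Its difference was 0.11 (SE 0.87). The choroid plexus marker list (6 genes) had medians of 9.13, 6.82 and 8.27 in alcohol pools 1 to 3 and of 6.45, 7.99 and 7.70 in control pools 1 to 3. The list median was thus lowest in alcohol pool 2 and control pool 1, where Car12 was highest, but the listed genes did not go one way. Kl, Clic6 and Otx2 were lowest in these pools, whereas Ttr, Folr1 and Kcnj13 were not. Ttr and Folr1 were highest in alcohol pool 1, at 13.67 and 8.35. The part of choroid plexus in the level of Car12 was not tested. Without 1 pool the difference of Car12 ran from -0.51 to 0.90.

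Mxi1, a repressor that opposes Myc, was at 12.91, 12.42 and 13.15 in alcohol pools 1, 2 and 3 and at 12.26, 13.29 and 13.40 in control pools 1, 2 and 3. Both pools without cerebellar markers were below the other 4. The difference was -0.31 among the 4 arrays and 0.16 between the other pair, with -0.16 (SE 0.37) over all. Higd1a, a mitochondrial protein, differed by -0.23 (SE 0.24) and P4ha1, a collagen prolyl hydroxylase subunit, by -0.06 (SE 0.26).

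Of the glucose transporters, Slc2a1 is the carrier of the blood-brain barrier and of glia, and Slc2a3 that of neurons. Slc2a1 was at 12.53, 13.18 and 12.34 in alcohol pools 1, 2 and 3 and at 13.00, 12.49 and 12.49 in control pools 1, 2 and 3. Slc2a3 was at 12.18, 11.49 and 12.40 with alcohol and at 11.70, 12.02 and 12.02 in controls. The pair went opposite ways between kinds of pool: alcohol pool 2 and control pool 1 were the highest for Slc2a1 and the lowest for Slc2a3. With alcohol Slc2a1 differed by 0.02 (SE 0.29) and Slc2a3 by 0.11 (SE 0.28). Among the 4 arrays with cerebellar markers Slc2a3 was higher with alcohol by 0.27, and between the other pair the difference was -0.21.

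Upper glycolysis, from glucose to the triose phosphates, had 8 of 11 members lower and 3 higher with alcohol, while 45.9% of all features were higher. The median difference was -0.05 against -0.02 over all features. Among the 8, Hk1, Gpi and Tpi1 changed sign when 1 pool was left out, so no direction is read for this role. Hk2, the inducible hexokinase, was at 9.00, 8.81 and 8.63 in alcohol pools 1, 2 and 3 and at 9.36, 9.21 and 8.90 in control pools 1, 2 and 3. Only alcohol pool 1 and control pool 3 crossed, and the difference was -0.34 (SE 0.20, 95% interval -0.84 to 0.15). Hk1, the hexokinase typical of brain, differed by -0.02 (SE 0.22). Among the phosphofructokinases, which catalyse the committed step, Pfkl differed by -0.21 (SE 0.21), Pfkm by 0.12 (SE 0.16) and Pfkp by 0.08 (SE 0.16). Pfkfb3 and Pfkfb4, which make the activator of that step and are HIF targets, differed by -0.20 (SE 0.19) and -0.22 (SE 0.24).

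Aldoa, the general aldolase, was at 15.04, 14.94 and 15.04 in alcohol pools 1, 2 and 3 and at 14.85, 15.03 and 15.02 in control pools 1, 2 and 3. Its 6 values spanned 0.20. Aldoc, the brain isoform, was at 14.77, 14.52 and 14.67 with alcohol and at 14.45, 14.98 and 14.87 in controls. Among the 4 arrays with cerebellar markers Aldoc was lower with alcohol by a difference of -0.20, whereas between the other pair it was 0.07. Gpi, the isomerase of the second step, differed by -0.04 (SE 0.16) and Tpi1, which interconverts the triose phosphates, by -0.05 (SE 0.17).

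Lower glycolysis, from the triose phosphates to lactate, had 6 of 7 members higher and 1 lower, with a median difference of 0.05. Of all features 45.9% were higher. Among the 6, Pgk1, Eno1, Eno2 and Ldha changed sign when 1 pool was left out, so no direction is read for this role. The member that was lower was Gapdh, the dehydrogenase often used as a reference gene, at 14.88, 14.86 and 14.88 in alcohol pools 1, 2 and 3. Gapdh was at 14.95, 14.98 and 14.96 in control pools 1, 2 and 3, so the groups did not overlap. Its 6 values spanned 0.12, the narrowest range among the members, and its difference was -0.09 (SE 0.15, 95% interval -0.46 to 0.27; limma adjusted p = 1.00). The SDs within groups were 0.01 with alcohol and 0.02 in controls (n = 3 each), and the limma error is larger because it draws on the spread of all features. The mean of this and a dimmer sequence that the files also call Gapdh differed by 0.034, the opposite sign.

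The remaining members of lower glycolysis had small differences. Pgk1 and Pkm, the kinases that make ATP, differed by 0.09 (SE 0.19) and 0.08 (SE 0.16), and the mutase Pgam1 by 0.12 (SE 0.17). Eno1, the general enolase, differed by 0.05 (SE 0.18). Eno2, the enolase of neurons, was at 14.30, 13.53 and 14.13 in alcohol pools 1, 2 and 3 and at 13.57, 14.21 and 14.15 in control pools 1, 2 and 3, a difference of 0.01 (SE 0.29). The low values of Eno2 were those of the pools without cerebellar markers. Ldha, which makes lactate and whose promoter is shown above, was at 12.37, 12.48 and 12.41 with alcohol and at 12.50, 12.24 and 12.46 in controls. Its difference was 0.02 (SE 0.17), with a 95% interval from -0.38 to 0.42. Genes such as Gapdh, Pgk1, Pgam1, Aldoa, Eno1, Ldha, Tpi1 and Pkm have near-identical copies in the genome, and their probes may share signal with them.

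**Figure D3:**
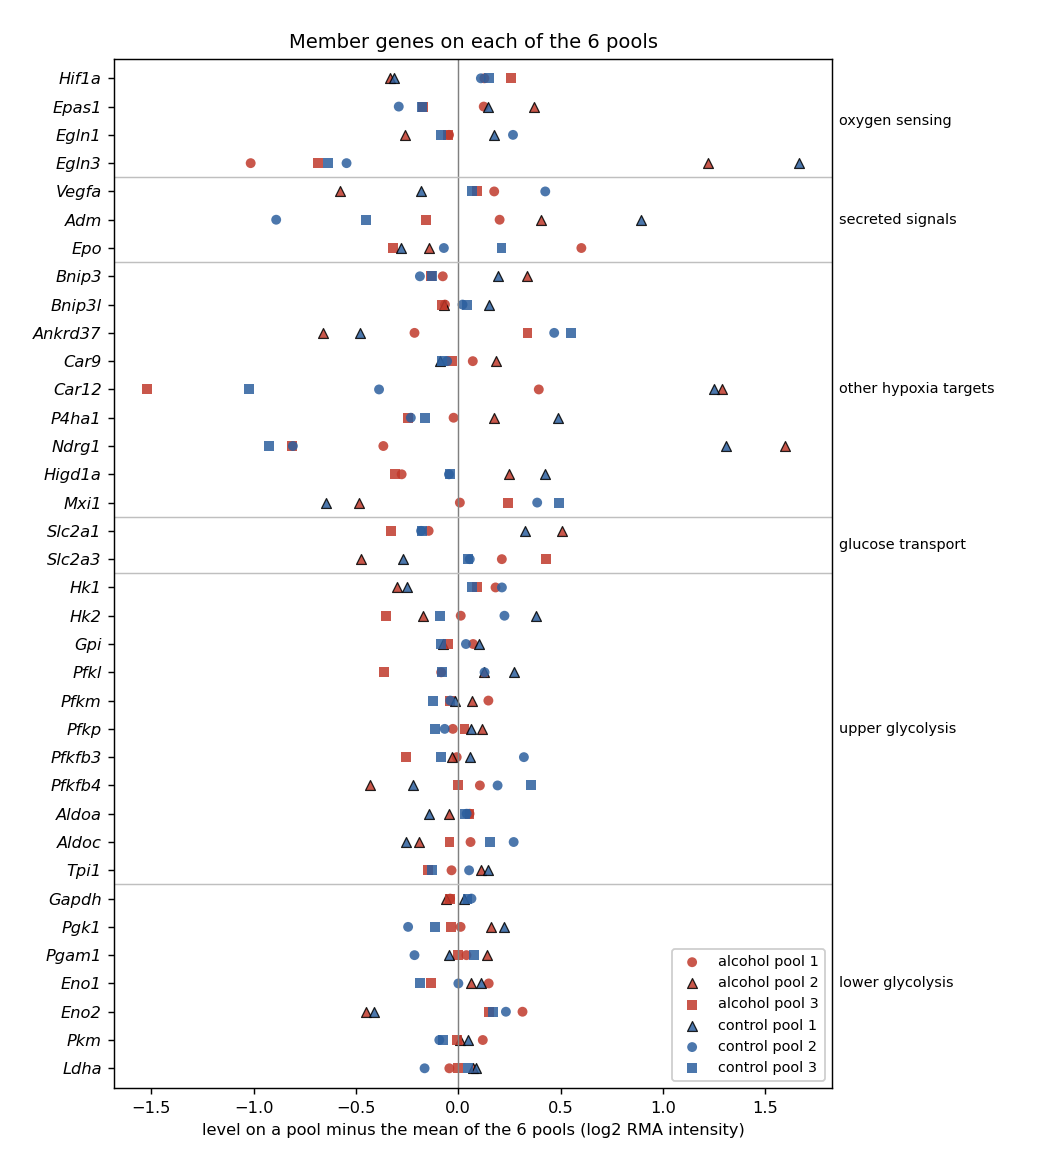
Level of each of the 36 genes on each pool minus its mean over the 6 pools (horizontal axis, log2 RMA intensity), grouped by role. Red symbols are alcohol pools and blue symbols control pools, with triangles for alcohol pool 2 and control pool 1. These triangles lie outside the other 4 pools for 23 genes, 13 above and 10 below.

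Alcohol pool 2 and control pool 1 both lay above the other 4 pools for 13 of 36 members (23.4% of all features) and both below for 10 (25.1% of all features). Among features that reach the floor on at least 3 arrays, which 34 of the members do, these shares were 29.9% and 31.4%. The members above were Epas1, Egln3, Adm, Bnip3, Car12, P4ha1, Ndrg1, Higd1a, Slc2a1, Pfkp, Tpi1, Pgk1 and Ldha. Those below were Hif1a, Vegfa, Ankrd37, Mxi1, Slc2a3, Hk1, Pfkfb4, Aldoa, Aldoc and Eno2. By role, 5 of the 9 other hypoxia targets were above and 2 below, whereas 2 of 11 members of upper glycolysis were above and 4 below. The range over the 6 arrays exceeded 1 for 7 members (44.0% of all features), and 6 of these 7 were targets or signals rather than enzymes of glycolysis, the seventh being Egln3. Among the genes of upper and lower glycolysis the range was 0.12 to 0.78. The pools were not grouped by the labels in this way, so these values are a description.

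**Figure D4:**
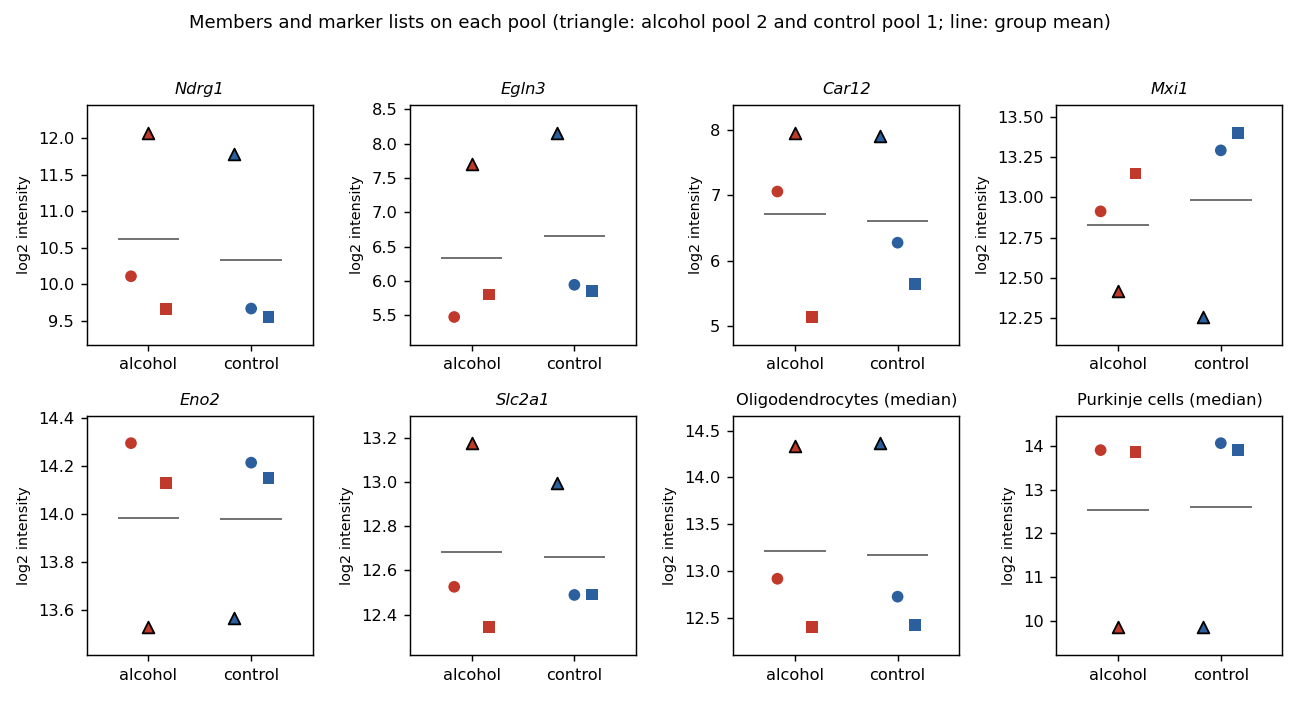
Levels (vertical axis, log2 RMA intensity, a separate scale in each panel that does not start at 0) of 6 members and the median levels of the oligodendrocyte and Purkinje cell marker lists in each alcohol pool, red, and control pool, blue. Triangles are alcohol pool 2 and control pool 1, and lines are group means. Ndrg1, Egln3, Car12 and Slc2a1 are highest in the triangles, as is the oligodendrocyte list, and Mxi1 and Eno2 are lowest there, as is the Purkinje cell list.

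Of 64 further genes of glycolysis, pyruvate use and the hypoxia response, 60 were measured. Limma called 0 of the 60 (0.00% of all features), with a median difference of -0.05, and 23 of them were higher with alcohol, while 45.9% of all features were higher. Without adjustment 1 of 60, Ddit4, had a limma p under 0.05 (3.90% of all features). Ddit4, an inhibitor of mTOR that hypoxia, glucocorticoids and other stresses induce, was at 9.18, 9.60 and 9.21 in alcohol pools 1, 2 and 3. Ddit4 was at 8.69, 8.62 and 8.83 in control pools 1, 2 and 3, so the groups did not overlap. Its difference was 0.61 (SE 0.19, 95% interval 0.15 to 1.08), with a limma p of 0.017 and an adjusted p of 1.00. Alcohol was higher both among the 4 arrays, by 0.47, and between alcohol pool 2 and control pool 1, by 0.91. With the marker term its limma p was 0.0073 and its adjusted p 0.433.

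All alcohol values lay above all control values for 1 of 60 of these genes, Ddit4 (4.39% of all features), and below for 2, Mif and Pdhb (4.36% of all features). Mif, a cytokine and HIF target, was at 11.07, 11.08 and 10.85 in alcohol pools 1, 2 and 3 and at 11.42, 11.29 and 11.19 in control pools 1, 2 and 3. Its difference was -0.30 (SE 0.17; limma adjusted p = 1.00). Pdhb, a subunit of pyruvate dehydrogenase, differed by -0.11 (SE 0.15), with alcohol values of 12.52, 12.48 and 12.56 and control values of 12.67, 12.65 and 12.57.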

How the data were processed

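The values the authors deposited are RMA intensities on a linear scale, 1 per sequence and array. The submitters' processing notes name RMA but no version of it. A genome build, and whether arrays were normalized jointly, are not given in the sources used here. Of 26420 entries, 1 (random-sequence probes) was left out. The deposited value table of 18107 features holds the same intensities and was used as an alternative. Their log2 was taken, with no other normalization. Names came from RefSeq gene identifiers (GRCr8) for 20681 features and from the files otherwise.

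The test was limma 3.58.1 (R 4.3.3), two-sided, with group as the only term in lmFit and eBayes, and Benjamini-Hochberg adjustment over all features at 0.05, and checked on simulated data. Tables used Python 3.11.15. Per-array values are given for the brightest gene of each role and for members above the floor whose groups do not overlap or whose range exceeds 1. Per-array values of Hk2, Slc2a3, Aldoc, Eno2 and Ldha were chosen after their values were seen. Of the other pathway genes, those above the floor whose groups do not overlap were named. The members, lists and rules, and the marker term, were chosen with earlier results of these data known. The alternatives were the value table, centring, quantile normalization, each pool left out, a replicate block, a filter on dim features, trend and robust eBayes, array weights, the mean of a gene's rows, the marker term and the other 4 arrays.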

Additional observations from a re-analysis of the deposited data

How the results depend on the processing

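Under all 16 alternatives limma called 0 of the members and 0 of all features, with lowest adjusted p values of 0.520 for a member and 0.130 for any feature. At most 1 member had an unadjusted limma p under 0.05 in any of them. The median difference of the members ran from -0.051 to 0.046, and from -0.051 to 0.0040 without 1 pool. With the replicate block 0 members were called. Same-numbered pools' deviations correlated at -0.63, -0.68 and 0.60. The pools without cerebellar markers carry different numbers in the alcohol and control groups, and this split alone could give such values. The correlations thus cannot show whether the numbers pair the pools. Signs of these uncalled differences changed as follows. Leaving out 1 pool turned the sign for 19 of 34 members with a difference, and 15 kept it. The ranges were -0.11 to 0.21 for Hif1a, -1.01 to 0.43 for Egln3, -0.35 to 0.031 for Vegfa, -0.070 to 0.82 for Adm, -0.064 to 0.20 for Bnip3, -0.51 to 0.90 for Car12, -0.19 to 0.17 for P4ha1, -0.45 to 1.01 for Ndrg1, -0.52 to 0.053 for Mxi1 and -0.23 to 0.19 for Slc2a1. They were -0.077 to 0.38 for Slc2a3, -0.15 to 0.13 for Hk1, -0.087 to 0.0051 for Gpi, -0.015 to 0.077 for Aldoa, -0.12 to 0.017 for Tpi1, -0.0098 to 0.23 for Pgk1, -0.030 to 0.13 for Eno1, -0.20 to 0.23 for Eno2 and -0.058 to 0.068 for Ldha. In the other 4 arrays P4ha1 was at 0.064, Slc2a1 at -0.056 and Gpi at 0.034. With array weights P4ha1 was at 0.062, Slc2a1 at -0.019, Hk1 at 0.048, Gpi at 0.058 and Ldha at -0.00075. Eno2 was at -0.016 with quantile normalization, Hk1 at 0.0091 with centring and Gapdh at 0.034 with the mean of its rows. The cause of these changes was not tested. Epo and Car9 lay under the floor throughout, as did some values of Egln3, Adm and Car12, so signal over background limits what they show.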
